A study of Mus musculus with 8 samples.

Results

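Genes of the Bcl2 family and of the initiator caspases, which set whether a cell under stress survives or dies by apoptosis, were followed in mouse enamel organs between the secretory and the maturation stage of enamel formation. The group held 9 of the 54532 genes in the deposited table of read counts: Bcl2, Bcl2l1, Mcl1, Bax, Bak1, Bcl2l11, Bbc3, Casp8 and Casp9. They were chosen by gene name for their place in apoptosis at the ameloblast transition, and each name matched 1 row. This choice, and that of the gene lists used further below, was made with earlier results of these data known. RNA-seq was performed on first molars of wt C57BL/6 mice, untreated, at P5 (secretory stage, enamel matrix being laid down) and at P12 (maturation stage, matrix being removed and mineralized). Both ages had the same strain and genotype and differed only in the age given by the labels, and each had 4 libraries (P5 replicates 1, 3, 4 and 5, and P12 replicates 1, 2, 3 and 4). Each library was a pool of 5 pups, so that p-values measure the spread between pools, and the libraries hold RNA of the whole dissected tissue after poly(A) capture and not of sorted ameloblasts.

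Apoptosis through mitochondria is set by 3 groups of Bcl2 proteins. The anti-apoptotic members Bcl2, Bcl2l1 (Bcl-xL) and Mcl1 bind and hold the effectors Bax and Bak1, which otherwise form pores in the outer mitochondrial membrane and release cytochrome c. BH3-only proteins such as Bcl2l11 (Bim) and Bbc3 (Puma) carry a single short helix, the BH3 domain, that fits the groove of the anti-apoptotic members and frees or activates the effectors. Cytochrome c in the cytosol assembles with Apaf1 into the apoptosome, which activates Casp9, whereas Casp8 is activated at death receptors on the cell surface, and both initiator caspases then cleave executioner caspases. In enamel organs a share of the ameloblasts is known to die around the transition from secretion to maturation. Much of this pathway is regulated at the protein level, by binding, cleavage and turnover, which read counts do not measure.

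The part of each coding sequence that carries its interaction or its chemistry is shown first, since it defines what the 9 genes share and where they differ. The stretches were read from the GENCODE M21 transcripts of GRCm38, in the coding direction, from the principal transcript of each gene. Capitals mark, in the 7 Bcl2 proteins, the codon of the conserved BH3 leucine and the codons of the small residue (glycine or alanine) and the aspartate after it, and in the 2 caspases the 5 codons of the active site around the catalytic cysteine.
Bcl2 (chr1:106712572-106712613, minus strand, exon 1): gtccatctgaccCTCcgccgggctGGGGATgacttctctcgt
Bcl2l1 (chr2:152829694-152829735, minus strand, exon 2): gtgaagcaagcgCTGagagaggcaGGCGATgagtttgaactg
Mcl1 (chr3:95659424-95659465, plus strand, exon 1): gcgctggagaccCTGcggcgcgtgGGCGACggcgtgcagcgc
Bax (chr7:45465994-45466035, minus strand, exon 3): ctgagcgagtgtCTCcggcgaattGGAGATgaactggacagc
Bak1 (chr17:27022528-27022569, minus strand, exon 4): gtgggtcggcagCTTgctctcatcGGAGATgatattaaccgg
Bcl2l11 (chr2:128147138-128147179, plus strand, exon 3): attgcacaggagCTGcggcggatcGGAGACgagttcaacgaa
Bbc3 (chr7:16313761-16313802, plus strand, exon 3): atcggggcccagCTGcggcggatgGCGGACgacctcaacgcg
Casp8 (chr1:58844601-58844639, plus strand, exon 8): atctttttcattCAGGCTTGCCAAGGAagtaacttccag
Casp9 (chr4:141807235-141811549, plus strand, across the intron between exons 6 and 7): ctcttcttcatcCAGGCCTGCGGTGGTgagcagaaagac

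All 9 genes were expressed well above the filter on low counts at both ages. Of these, 5 rose between P5 and P12 (Casp8, Mcl1, Bcl2l11, Bak1 and Casp9), none fell, and Bcl2l1, Bbc3, Bcl2 and Bax did not pass the test (edgeR's quasi-likelihood test, Benjamini-Hochberg adjusted p under 0.05 over 16440 genes). DESeq2 and limma-voom gave the same counts of 5 and 0, and at an unadjusted p under 0.05 edgeR also had 0 of the 9 lower. At an edgeR adjusted p under 0.01 the count of genes that rose was 4 of the 9, without Casp9, where 3713 of the 16440 genes rose. The Casp9 call was also lost in most fits that left out 1 library, as given below. The rises were small, between 18.4% and 63.5%, and the called genes belong to all the roles: 1 anti-apoptotic gene, 1 effector, 1 BH3-only gene and both initiator caspases. Among all genes tested, 28.8% rose and 28.4% fell. The median log2 fold change was 0.24 over the 9 genes and 0.0076 over all genes tested. Libraries of the 2 ages did not overlap for 4 of the 9 genes, each higher at P12, where 26% of all genes tested were higher at P12 with no overlap.

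Total counts were between 16574548 and 20262601 per library at P5 and between 17588152 and 22013456 at P12, which sets a floor of 3 counts at 0.136 to 0.181 CPM. The floor is a conversion of counts only and measures no spread. The intervals below come from an SE derived from the log2 fold change and the F statistic of the edgeR test. They cover the spread of counts between pools, counting error included. Reads carried no molecular identifiers. The 20 most abundant genes took 34.1% to 35.7% of the counts at P5 and 16.8% to 19.0% at P12. Ameloblast markers moved with the labelled stage: all 4 secretory ameloblast markers were lower at P12 and all 5 maturation markers higher. Of the dental epithelium markers 5 of 5 were detected, of which 3 were higher at P12 and 1 lower. Summed normalized counts of odontoblast, bone and mesenchyme markers were 1.02e+06 to 1.22e+06 per library at P5 and 866414 to 1.08e+06 at P12. Secretory ameloblast markers summed to 4.97e+06 to 5.58e+06 and 236984 to 621739, and maturation markers to 12883 to 44241 and 356878 to 482608. Dental epithelium markers summed to 93181 to 99004 and 264010 to 328812. At P12 the mesenchymal sum was thus the largest of these. Markers of other cells moved too, with 3 of 3 osteoclast, 3 of 3 endothelial, 3 of 3 neutrophil, 3 of 3 proliferating cell and 5 of 5 oral and cornified epithelium markers higher at P12. So were 3 of 4 macrophage and leukocyte, 3 of 3 Schwann cell and 2 of 2 tested lymphocyte markers, 1 of 6 mesenchymal and 1 of 3 muscle markers, while 2 of 6 mesenchymal, 2 of 3 muscle and 2 of 5 erythroid markers were lower. Their part in the results was not tested, and fewer cells of a type cannot be told apart from less RNA per cell in these bulk libraries. P12 replicate 4 and P5 replicate 5 stood apart from their groups in marker levels, as described with the genes they touch. Values below are normalized counts, that is counts divided by the TMM-scaled library size and multiplied by the mean of these sizes, for n = 4 libraries per age, with SD.

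Mcl1, a short-lived anti-apoptotic protein that holds Bak1 and Bcl2l11, had the highest level of the group. Its normalized count was 2213, 2222, 2488 and 2377 in P5 replicates 1, 3, 4 and 5, and 3712, 3647, 3439 and 2977 in P12 replicates 1 to 4. Every P12 library was above every P5 library. The mean rose from 2325 ± 132 to 3444 ± 332, a log2 fold change of 0.57 (SE 0.079, edgeR adjusted p = 9.8e-05, two-sided exact permutation p = 0.0286, the smallest that 4 against 4 libraries can give). The lowest P12 value came from replicate 4, and without it the log2 fold change was 0.63.

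Bcl2l1 encodes Bcl-xL, an anti-apoptotic protein that holds both Bax and Bak1. It was measured at 862, 761, 889 and 710 at P5 and at 974, 1009, 910 and 802 at P12. The ages overlapped, since P12 replicate 4 lay within the P5 range and the other 3 P12 libraries above it. Means were 806 ± 83.8 and 924 ± 90.8, and the log2 fold change of 0.20 (SE 0.093, 95% interval -0.0046 to 0.41) did not pass (edgeR adjusted p = 0.0878). Without P12 replicate 4 the change was 0.26 and passed (edgeR adjusted p = 0.0194). Without P5 replicate 5, the lowest P5 library, the change was 0.14 and did not pass (edgeR adjusted p = 0.228). The size and the call thus depend on single libraries. Counts per gene do not separate the long anti-apoptotic from the short pro-apoptotic splice form.

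Bcl2, the founding anti-apoptotic member, was steady among libraries. The normalized count was 226, 243, 231 and 232 at P5, the smallest relative spread of the group (2.97%), and 276, 255, 257 and 226 at P12. P12 replicate 4 was level with the lowest P5 library, and the other 3 P12 libraries were above all P5 libraries. Means of 233 ± 6.92 and 253 ± 20.5 gave a log2 fold change of 0.12 (SE 0.093, 95% interval -0.082 to 0.33, edgeR adjusted p = 0.283).

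**Figure D1:**
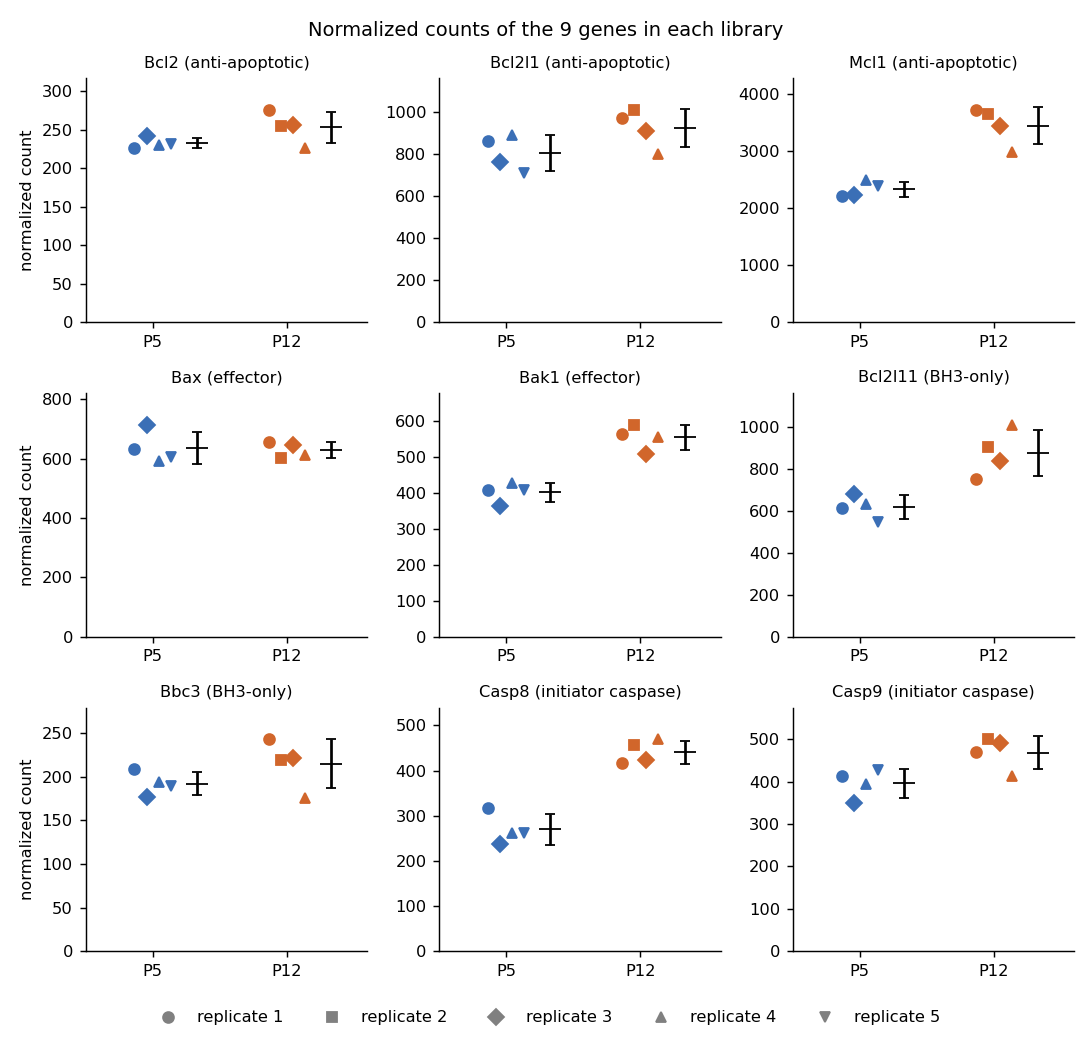
Normalized counts of the 9 genes (y axis, from 0) in each library at P5 (blue) and P12 (orange), with the replicate number as the symbol and the mean ± SD of 4 libraries beside the points. Mcl1, Bak1, Bcl2l11 and Casp8 have no overlap between the ages, and P12 replicate 4 is the lowest P12 library for Bcl2, Bcl2l1, Mcl1, Bbc3 and Casp9.

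The 2 effectors differed in their change. Bax, which moves from the cytosol into the mitochondrial membrane when activated, was at 633, 714, 593 and 605 at P5 and at 657, 603, 648 and 613 at P12. The P12 values lay inside the P5 range. Means were 636 ± 54.7 and 630 ± 26.2, and the log2 fold change of -0.013 (SE 0.075, edgeR adjusted p = 0.896) had a 95% interval of -0.18 to 0.15.

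Bak1, the effector that already sits in the outer mitochondrial membrane, was at 409, 366, 429 and 408 at P5 and at 565, 590, 510 and 556 at P12. No library of one age reached the range of the other. The mean rose from 403 ± 26.5 to 555 ± 33.8 (log2 fold change 0.47, SE 0.077, edgeR adjusted p = 0.000335, exact permutation p = 0.0286). Of the exonic bases of Bak1, 25.5% lie within entries named Ggnbp1 on the opposite strand. The entry with read counts shares 18.2%, and another that shares 7.35% is not among the deposited genes. Whether strand was used in counting is not given in the sources used here. The Ggnbp1 entry with read counts was at 175 ± 35.7 at P5 and 139 ± 10.4 at P12 (log2 fold change -0.33, edgeR adjusted p = 0.089). Its part in the Bak1 counts was not tested.

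The BH3-only genes were Bcl2l11 and Bbc3. Bcl2l11, whose protein Bim binds all the anti-apoptotic members, was at 615, 680, 636 and 545 at P5 and at 753, 903, 840 and 1011 at P12. The ages did not overlap, with P5 replicate 5 the lowest and P12 replicate 4 the highest of the 8 libraries. The mean rose from 619 ± 56.1 to 877 ± 109 (log2 fold change 0.50, SE 0.099, edgeR adjusted p = 0.00115, exact permutation p = 0.0286). These same libraries were at the ends of the summed maturation ameloblast markers, with 12883 in P5 replicate 5 against 36794 to 44241 in the other P5 libraries and 482608 in P12 replicate 4 against 356878 to 458168 in the other P12 libraries. Whether these markers have a part in the Bcl2l11 change was not tested, and with both libraries left out the log2 fold change was 0.37 (edgeR adjusted p = 0.00131).

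Bbc3, whose protein Puma is a known target of p53, was the other BH3-only gene. Its normalized count was 208, 177, 194 and 190 at P5 and 243, 219, 221 and 176 at P12. Here P12 replicate 4 was level with the lowest P5 library, while the other 3 P12 libraries were higher than all of them. Means were 192 ± 13.1 and 215 ± 28.1, and the log2 fold change of 0.17 did not pass (SE 0.12, 95% interval -0.098 to 0.43, edgeR adjusted p = 0.261). The relative spread at P12, 13.1%, was the largest of the group.

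Promoters of the 9 genes were searched for motifs of the stress regulators that are known to act on BH3-only genes and on Bax. RefSeq promoters (GRCm38.p6, 250 bases before to 50 after each start, both strands) were found for all 9 genes, in 14 windows. The FOXO motif GTAAACA, held by 3.66% of 32544 promoters, was in 1 of 2 Bcl2l11 windows and 1 of 3 Bbc3 windows. A p53 half-site, held by 8.36% of promoters, was in the Bax window and in none of the other 13. The 60 bases around the match are given for Bcl2l11, which rose, and for Bax, which did not pass the test, with the motif in capitals.
Bcl2l11 (chr2:128125788-128125847, plus strand, motif at -227 to -221 from the start): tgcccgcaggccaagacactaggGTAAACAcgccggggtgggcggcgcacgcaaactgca
Bax (chr7:45467065-45467124, minus strand, motif at -201 to -192 from the start): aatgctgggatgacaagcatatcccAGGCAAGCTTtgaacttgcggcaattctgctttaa
The GC box GGGCGG, in 35.9% of promoters, occurred in Bcl2, Bcl2l11, Mcl1, Casp9, Bbc3 and Bax windows. The E-box CACGTG, in 7.17% of promoters, occurred in windows of Bbc3 and Bax, and the TATA box TATAAA, in 13.6% of promoters, in none of the 14. The motif matches describe letters only, and no factor binding was measured.

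Both initiator caspases rose. Casp8, the caspase of death receptors, had the largest change of the group, from 318, 238, 261 and 263 at P5 to 416, 456, 422 and 469 at P12. The ages did not overlap, and P5 replicate 1 was the highest P5 library. Means were 270 ± 33.7 and 441 ± 25.4 (log2 fold change 0.71, SE 0.098, edgeR adjusted p = 8.88e-05, exact permutation p = 0.0286), a fold of 1.64. Leaving out any 1 library gave log2 fold changes from 0.65 to 0.79.

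Casp9, the caspase of the apoptosome, changed less. It was at 414, 349, 394 and 427 at P5 and at 470, 499, 491 and 413 at P12. P12 replicate 4 lay within the P5 range and the other 3 P12 libraries above it. Means of 396 ± 34.1 and 468 ± 39.1 gave a log2 fold change of 0.24 (SE 0.090, edgeR adjusted p = 0.0372), while the exact permutation test gave p = 0.0857. The call was lost in 6 of the 8 fits that left out 1 library, namely P5 replicate 1, 3 or 4 or P12 replicate 1, 2 or 3 (log2 fold changes 0.18 to 0.26, edgeR adjusted p 0.0516 to 0.122). Without P5 replicate 5 or P12 replicate 4 the call was kept, at 0.28 and 0.29 (edgeR adjusted p = 0.0319 and 0.00926). Of its exonic bases, 1.81% are shared with the opposite-strand pancreatic protease genes Ctrc and Cela2a. Ctrc had 0 to 11 counts at P5 and 120 to 159 at P12, and its part in the Casp9 counts was not tested.

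**Figure D2:**
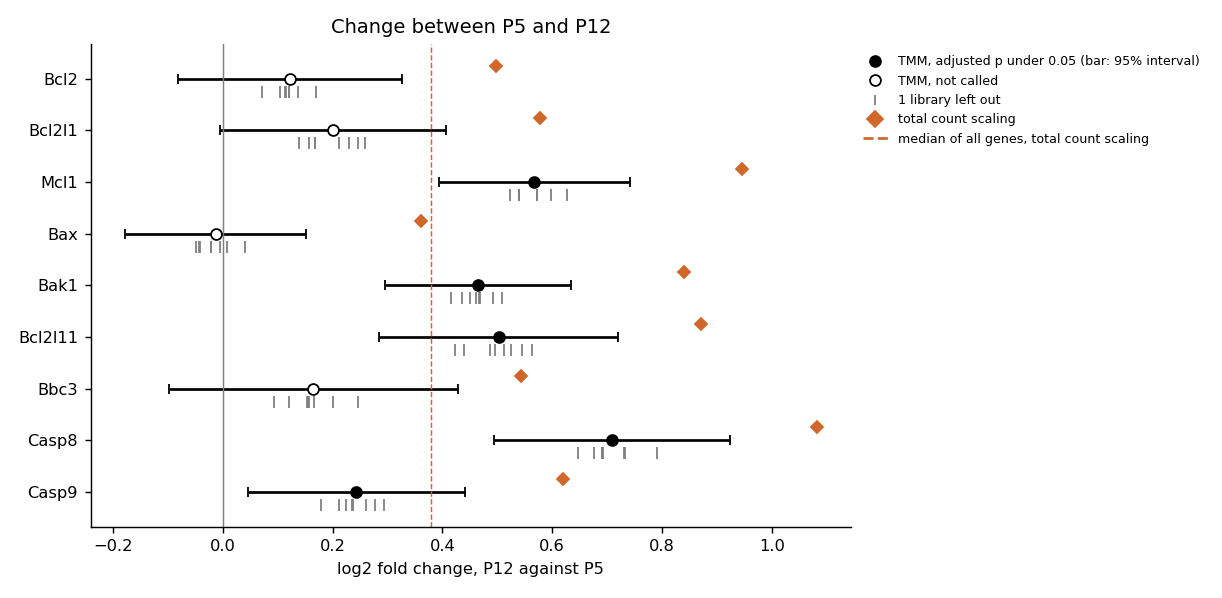
Log2 fold change of the 9 genes, P12 against P5 (x axis): circles are the TMM-scaled edgeR estimates with 95% intervals, filled where the adjusted p was under 0.05, grey ticks the fits without 1 library, and orange diamonds the fit scaled by total count, with the median of all genes in that fit as the dashed line. Casp8 is farthest to the right at 0.71 and Bax lies at -0.013, and every diamond is shifted by about the median of 0.38.

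The scaling moves these values together. TMM sets the bulk of genes at no change, with a median log2 fold change of 0.0076, whereas scaling by total count, in which the abundant secretory genes of P5 weigh in full, put the median of all genes at 0.38. All 9 genes were then called higher at P12, Bax included (log2 fold change 0.36), and so were 54% of all genes tested. Relative to the median of all genes the values hardly moved, with Casp8 at 0.70 under both scalings and Bax at -0.020 under TMM and -0.019 under total count.

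Levels of different genes were compared per kilobase of the gene length given in the table. At P5 Mcl1 was highest at 680 ± 38.7 normalized counts per kilobase, Bax next at 404 ± 34.7, and Bcl2 lowest at 25.4 ± 0.756. Between them came Bcl2l1 at 176 ± 18.3, Bak1 at 167 ± 11.0, Casp8 at 93.3 ± 11.7, Bbc3 at 90.4 ± 6.15, Bcl2l11 at 77.1 ± 6.98 and Casp9 at 76.2 ± 6.56. The ranges of Bcl2l1 and Bak1 overlapped, as did those of Casp8 with Bbc3, Bbc3 with Bcl2l11 and Bcl2l11 with Casp9, so that their order is within the spread of the libraries.

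At P12 the top and the bottom of the order were the same: Mcl1 was at 1008 ± 97.2, Bax at 400 ± 16.6 and Bcl2 at 27.7 ± 2.24 normalized counts per kilobase. Bak1, at 231 ± 14.0, was above Bcl2l1, at 201 ± 19.8, in all 4 libraries although their ranges overlapped. Casp8 followed at 152 ± 8.79 and no longer overlapped its neighbours, while Bcl2l11 (109 ± 13.5), Bbc3 (101 ± 13.2) and Casp9 (90.1 ± 7.52) overlapped each with the next. As a description, Mcl1 made up 38.0% ± 1.83 of the summed per-kilobase levels of the 9 genes at P5 and 43.3% ± 1.84 at P12. The effectors made up 31.9% ± 1.72 and 27.2% ± 1.24, the BH3-only genes 9.36% ± 0.339 and 9.09% ± 0.485, and the caspases 9.47% ± 0.912 and 10.5% ± 0.657.

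**Figure D3:**
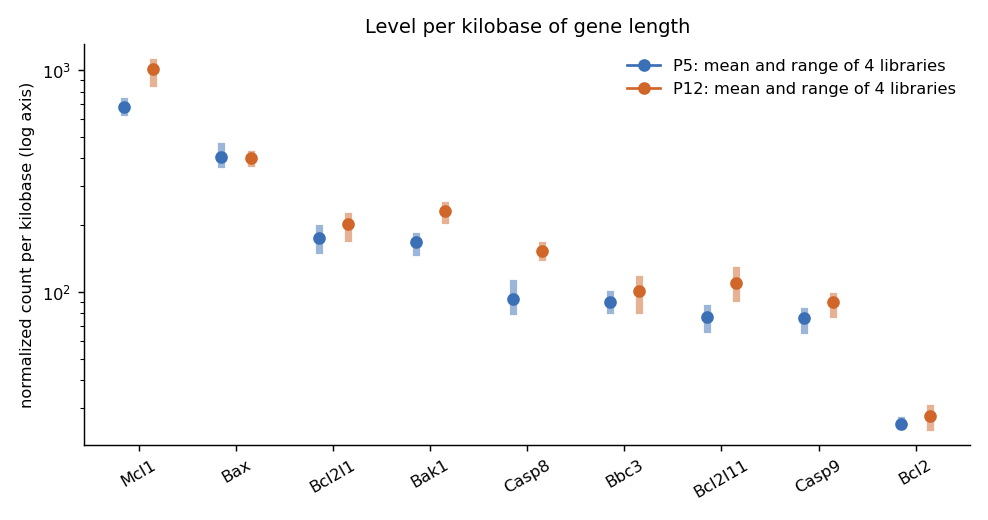
Normalized counts per kilobase of gene length (log y axis) for the 9 genes, ordered by their P5 mean, with the mean (circle) and the range (bar) of 4 libraries at P5 (blue) and P12 (orange). Mcl1 and Bax are highest and Bcl2 is lowest at both ages, and the bars of neighbours in the middle overlap.

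Ratios within a library do not depend on its scaling, and 3 were compared: the effector Bax to Bcl2, the BH3-only Bcl2l11 to Bcl2, and the anti-apoptotic Bcl2l1 to Mcl1. The log2 ratio of Bcl2l1 to Mcl1 was -1.36, -1.54, -1.48 and -1.74 at P5 and -1.93, -1.85, -1.92 and -1.89 at P12. All P12 libraries were lower than all P5 libraries, with a narrow spread at P12. The means differed by -0.37 (exact permutation p = 0.0286, adjusted over the 3 ratios 0.0857). This p is the smallest that 4 against 4 libraries can give. With only 1 of the 3 ratios at that value the adjusted p cannot pass 0.05, so it does not decide whether this ratio changed.

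For Bcl2l11 to Bcl2 the log2 ratio was 1.44, 1.48, 1.46 and 1.23 at P5 and 1.45, 1.82, 1.71 and 2.16 at P12. P12 replicate 1 lay within the P5 range and the other 3 P12 libraries above it. The difference of 0.38 did not pass (exact permutation p = 0.0857, adjusted 0.114). The log2 ratio of Bax to Bcl2 averaged 1.44 ± 0.0911 at P5 and 1.32 ± 0.0911 at P12 with overlapping libraries, a difference of -0.13 (exact permutation p = 0.114, adjusted 0.114).

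**Figure D4:**
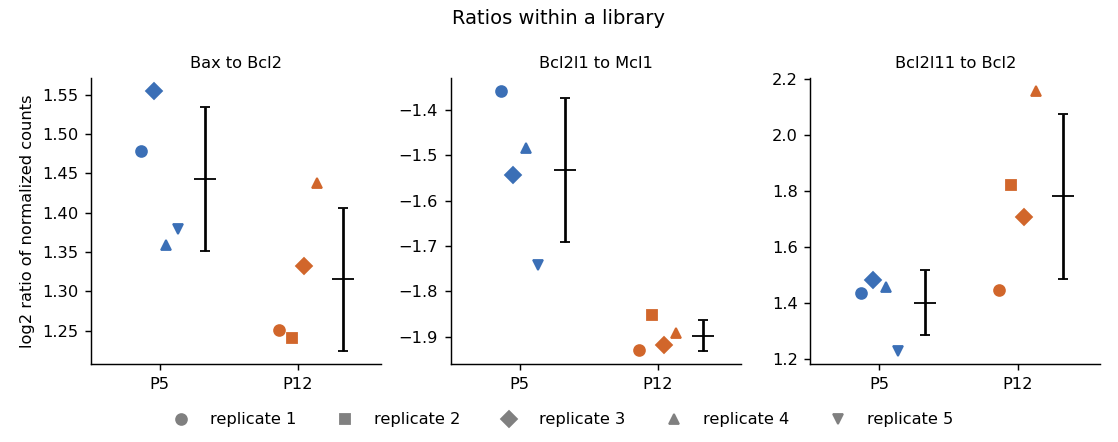
Log2 ratios of normalized counts within each library (y axes differ in range and do not start at 0) for Bax to Bcl2, Bcl2l1 to Mcl1 and Bcl2l11 to Bcl2, with the replicate number as the symbol and the mean ± SD of 4 libraries beside the points. For Bcl2l1 to Mcl1 the P12 libraries, between -1.93 and -1.85, are below all P5 libraries, and the other ratios overlap.

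The rest of the pathway was read from 6 lists of 48 genes, of which 42 could be tested, 19 rose and 5 fell. Their median log2 fold change was 0.19, beside 0.0076 for all genes. The counts of each list stand against the 28.8% of all genes that rose and the 28.4% that fell, and several are near these shares. Of the other anti-apoptotic genes, Bcl2l2 (Bcl-w) was the 1 of 5 that could be tested, and it rose from 992 ± 69.2 to 1269 ± 120 (log2 fold change 0.36, edgeR adjusted p = 0.00295). The others, Bcl2a1a, Bcl2a1b, Bcl2a1d and Bcl2l10, had normalized counts between 0 and 8.47 and were too low to test. The Bcl2a1 genes are near-identical copies, among which reads may be split.

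Of the other pro-apoptotic Bcl2 genes, 4 of 7 rose and 1 fell, with a median log2 fold change of 0.64. Pmaip1 (Noxa), a BH3-only protein that binds Mcl1, rose from 5.84 ± 3.38 to 19.3 ± 5.34 (log2 fold change 1.75, edgeR adjusted p = 0.00679). Hrk (Harakiri), a BH3-only protein first known from neurons, fell from between 19.1 and 41.4 at P5 to between 3.71 and 7.33 at P12 (log2 fold change -2.15, edgeR adjusted p = 0.000476). Both were low, with at most 41.4 normalized counts in any library. Bok, a relative of Bax and Bak1, and Bmf, a BH3-only gene, are named here after their values were seen: Bok rose by 0.97 and Bmf by 0.64 on the log2 scale (edgeR adjusted p = 0.000264 and 0.00158).

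Among the 7 other caspases reported here, which are not all of the caspases tested, 6 rose and Casp2, named after its value was seen, did not pass (edgeR adjusted p = 0.93), and the median was 0.99. DESeq2 and limma-voom also called 6 higher. Casp1, which cleaves interleukin-1 precursors in inflammasomes and is not a caspase of apoptosis proper, rose from 146 ± 10.7 to 1569 ± 185 (log2 fold change 3.42, edgeR adjusted p = 1.02e-09), a larger change than that of any of the 9 genes.

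On the side of Casp9, in the list of the apoptosome, the inhibitors of apoptosis and the factors that mitochondria release, 3 of 11 rose and 2 fell, with a median of 0.031. Apaf1, the scaffold of the apoptosome, fell from 479 ± 40.2 to 330 ± 36.7 with no overlap (log2 fold change -0.54, edgeR adjusted p = 0.00071), a change of -0.16 that was not called under total count scaling. Cycs, cytochrome c and also part of the respiratory chain, rose by 0.46 (edgeR adjusted p = 0.00822; named after its value was seen). Birc3, an inhibitor of apoptosis at TNF receptors, had the largest rise, from 100.5 ± 11.5 to 226 ± 34.7 (log2 fold change 1.17). Under total count scaling 8 of the 11 were called higher and none lower.

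On the side of Casp8, 5 of the 8 death receptor genes that could be tested rose and none fell, with a median of 0.41. DESeq2 and limma-voom also called 5 higher and 0 lower, and edgeR had 0 lower at an unadjusted p under 0.05. Tnfsf10 (TRAIL), a ligand of death receptors, rose from 24.0 ± 5.54 to 112 ± 17.4 (log2 fold change 2.22, edgeR adjusted p = 5.81e-06). The ligands Fasl and Tnf were too low to test, at 0 to 7.41 normalized counts. Fadd, the adaptor that brings Casp8 to the receptors, rose by 0.46, and Cflar (c-FLIP), which holds Casp8 inactive there, by 0.37 (edgeR adjusted p = 0.00755 and 0.000418, named after their values were seen), so that the activating and the restraining partner were both higher at P12.

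Of the p53 family and stress regulators, 0 of 8 rose and 2 fell by edgeR, with a median of -0.029. At an unadjusted p under 0.05 edgeR had 2 higher, and DESeq2 and limma-voom each called 1 higher. Trp73, the p53 relative p73, fell from 1582 ± 315 to 576 ± 43.4 with no overlap (log2 fold change -1.46, edgeR adjusted p = 2.39e-06). Foxo3, named after its value was seen, was the other gene that fell, from 1669 ± 58.0 to 1469 ± 96.5 (log2 fold change -0.18, edgeR adjusted p = 0.0276). Under total count scaling Foxo3 was called higher (log2 fold change 0.19, edgeR adjusted p = 0.0433). Trp53 itself, which acts on Bbc3 and Bax and is named after its value was seen, was at 921 ± 63.5 and 1095 ± 186 (log2 fold change 0.25, edgeR adjusted p = 0.0798), with P12 replicate 4 again within the P5 range. Without P12 replicate 4, 2 of the 8 were called higher, Trp53 (0.35, edgeR adjusted p = 0.00153) and Cdkn1a, and 3 lower, the added one being Trp63 (-0.41, edgeR adjusted p = 0.000926). Leaving out P5 replicate 3 or P12 replicate 3 left 1 lower. Total count scaling called 6 of the 8 higher and 1 lower.

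**Figure D5:**
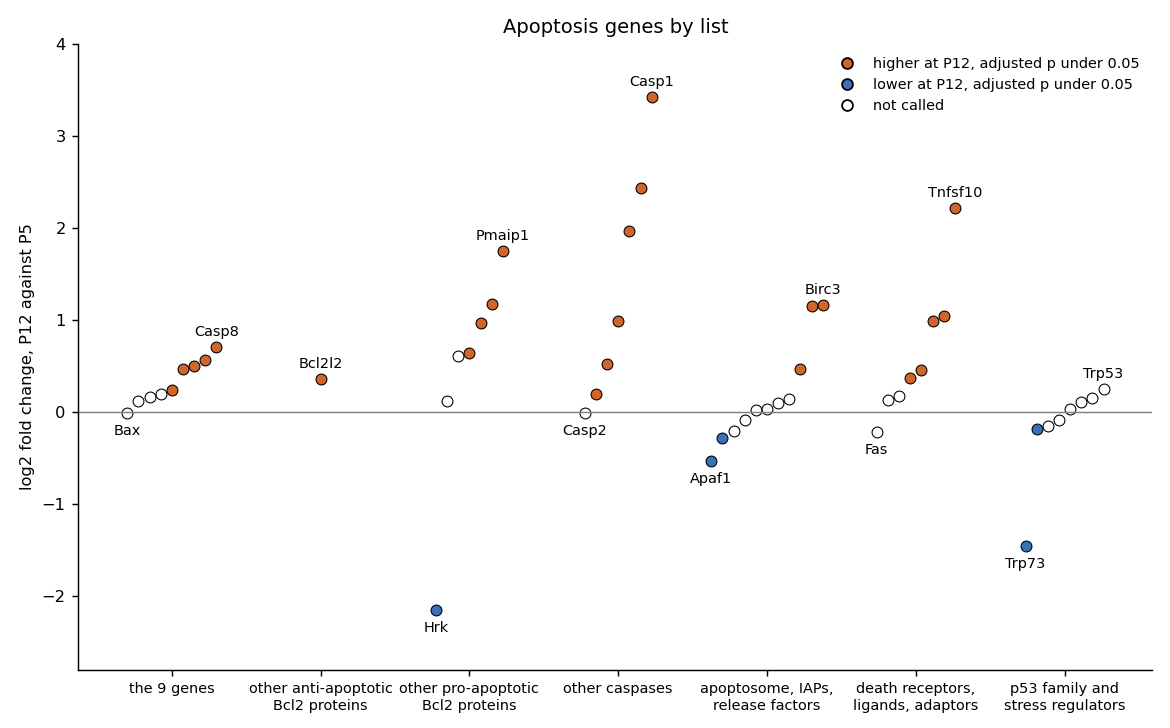
Log2 fold change (y axis, P12 against P5) of every tested gene of the 9 (left) and of the 6 further lists, 1 point per gene in rising order within its list, orange where higher and blue where lower at an adjusted p under 0.05 and white where not called. The 9 genes lie between -0.013 and 0.71, and Casp1 at 3.42 and Hrk at -2.15 are the extremes of the other lists.

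P12 replicate 4 was the lowest P12 library for 5 of the 9 genes and the highest for Bcl2l11 and Casp8, and of all genes tested 34.3% were lowest and 33.4% highest there. Its summed secretory ameloblast markers were 621739 against 236984 to 433552 in the other P12 libraries, its oral and cornified epithelium markers 13441 against 37017 to 56649, and its proliferating cell markers 1965 against 2597 to 3509. The part of these cells in the order of the P12 libraries was not tested. Without P12 replicate 4, 6 of the 9 genes were called higher, the added one being Bcl2l1. In that fit 4938 of all 16914 genes tested were called higher.

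Finally, the genes whose pattern over the 8 libraries was most like that of Casp8, the called gene with the largest rise, were sought among 11345 genes with a mean normalized count of at least 100. Ifi30, a lysosomal thiol reductase, had a Pearson correlation of 0.992, the complement regulator Cr1l 0.991 and the chaperonin subunit Cct8 0.991. The correlation includes the difference between the ages that all of them share, and the log2 fold changes were 0.70, 0.69 and 0.24.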

How the data were processed

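RNA-seq libraries of first-molar enamel organs (4 at P5 and 4 at P12) were compared. RNA was isolated with TRIzol and a Zymo kit per the labels. The submitters' processing notes name CASAVA and mm39, but the coordinates of the table match GRCm38: 53462 of its 54532 identifiers, with all 9 genes, are at the same place in GENCODE M21. Aligner, counter, strand setting and annotation release are not given in the sources used here. The authors deposited read counts per gene as whole numbers without normalization, which were used as deposited.

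The quasi-likelihood test of edgeR 4.0.16 (R 4.3.3) was run on counts after filterByExpr and TMM scaling, with age as the sole term. Benjamini-Hochberg adjustment covered the 16440 genes kept, with a threshold of 0.05. The SE was taken as the absolute log2 fold change over the square root of the F statistic. The 95% intervals used this SE and the fit's degrees of freedom. Normalized counts are scaled to the mean effective library size of 19038368. Single genes and log2 ratios were also compared by an exact permutation test over 70 splits on log2(normalized count + 1). Alternatives were DESeq2 1.42.0, limma-voom (limma 3.58.1), other scalings, filters and thresholds, each library left out, and a replicate block. The edgeR, DESeq2 and voom fits were tested on simulated data first. None of the 12 within-age pairs of libraries was as alike as counting noise alone would make it.

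The 9 genes and the lists were chosen with earlier results of these data known. Text names the 9 genes, the largest called rise and fall of each list, genes too low to test, and the 3 genes most like Casp8 by correlation. Other genes were named after their values were seen, or because they share exonic bases with one of the 9. Promoters came from RefSeq and coding sequence from GENCODE M21. Protein sequence was not used. A gene of the caspase list is not reported here. Python 3.11.15, numpy 2.4.6, scipy 1.17.1, pandas 2.3.3 and matplotlib 3.10.9 were used.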

Additional observations from a re-analysis of the deposited data

Results flagged for a closer look

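Of the named genes 37 were examined at each age, and in 4 of these 74 sets 1 library was far from the other 3 by Dixon's ratio for 4 values, where chance gives about 3.7. The gene Ggnbp1, which overlaps Bak1 on the opposite strand, was at a normalized count of 123.5 in P12 replicate 4, against 143 to 146 in the other P12 libraries. The rest were in genes too low to test: Bcl2a1a at a normalized count of 3.35 in P5 replicate 3, Bcl2a1d at 2.57 in P5 replicate 1 and Fasl at 1.32 in P5 replicate 4, each with 0 in the other P5 libraries, which is a few reads. None of the 9 Bcl2 family and caspase genes was among them.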

How the results depend on the processing

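Mcl1, Casp8, Bcl2l11 and Bak1 kept their direction and call under all 18 alternatives in which each was refitted. DESeq2 and limma-voom each called 5 of the 9 genes higher and 0 lower. Scaling by total count called 8885 genes higher and 2330 lower and all 9 of the group higher, with log2 fold changes of 0.36 for Bax, 0.50 for Bcl2, 0.58 for Bcl2l1 and 0.54 for Bbc3. Requiring a log2 fold change of 1 or more in size left 1864 genes higher, 1677 lower and 0 of the 9. Bax, near no change, was at 0.0058 with no filter on low counts and between -0.049 and 0.041 with 1 library left out. With 1 library left out the log2 fold change of Bcl2l1 was between 0.14 and 0.26, that of Casp9 between 0.18 and 0.29, and the log2 ratio of Bcl2l1 to Mcl1 between -0.43 and -0.31, where 7 libraries allow no p below 0.0571. Bcl2l1 was called at 0.21 without P5 replicate 5 and P12 replicate 4 together. Ranking by normalized count in place of counts per kilobase kept 1 of the 9 genes at its rank at each age.

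The replicate numbers 1, 3 and 4 occur at both ages, but same-numbered libraries did not deviate together (correlations 0.0446, 0.00514 and -0.0361), and not every library correlated best with its own number. With the number as a block over these 6 libraries 4 of the 9 genes were called, and 4 without the block. Of all 16399 genes tested, 3867 were called higher with the block and 4076 without it. Casp9 was lost at 0.25 in both (edgeR adjusted p = 0.107 and 0.0749). The lowest normalized count of any of the 9 genes in a library was 176, and the effect of depth was not tested.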
